A study of Mus musculus with 6 samples.

Results

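The circadian clock genes described here are Clock, Per1, Per2, Per3, Cry1, Cry2, Nr1d1, Nr1d2, Dbp and Tef. They were taken from the deposited expression table by gene name and are 10 of its 34745 genes. The molecular clock is a transcriptional feedback loop found in most mammalian cells, fibroblasts and skeletal muscle included. CLOCK pairs with BMAL1 (the product of Arntl) and binds E-box sequences to switch on the Per and Cry genes, whose proteins return to the nucleus and repress that same pair. A second loop runs through the nuclear receptors REV-ERBα and REV-ERBβ, encoded by Nr1d1 and Nr1d2, which repress Arntl, while DBP and TEF carry the rhythm to output genes through D-box sequences. Serum, fresh medium and glucocorticoids are known to set the phase of the clock in cultured fibroblasts, so the level of a clock gene depends on the hour at which cells are collected.

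RNA was sequenced from the NOR-10 line of fibroblasts from mouse skeletal muscle, grown in medium with serum. The control group (3 libraries) received PBS, and the D-gal group (3 libraries) received D-galactose, a sugar used to induce senescence, at 20 mg/mL for 3 days, with no other agent named. Both groups are the same cell line, and the labels do not say whether the 3 libraries of a group came from separate cultures, so p-values measure the spread between these libraries, which may be technical. The hour of collection and the time since the medium was last changed are not given in the sources used here, and each group was sampled at 1 time, so a change in the level of a clock gene and a shift in its phase cannot be told apart.

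Sequences are shown first for the promoters in which the letters of a clock element were found, since these are the sites through which the loop is known to act. RefSeq promoters (GRCm38.p6, 250 bases before to 50 after a transcription start) were given for 9 of the 10 genes, in 13 windows. None was given for Per2, so its promoter was not searched. The E-box letters CACGTG, which read the same on both strands, were in 4 of the 13 windows, against 7.15% of all 32851 promoters. These windows were those of Cry1 and Tef (both of its windows) and 1 window of Per1. Their bases were 62.0 to 72.3% G or C, against a median of 52.7% over all promoters. The part of base composition in these matches was not tested. The D-box letters TTATGTAA were in 1 window, that of Per3, in 2 copies on the strand of the gene, against 0.938% of all promoters. The D-box letters TTACGTAA, the ROR element letters TAGGTCA and TGGGTCA and the cAMP response element letters TGACGTCA, searched on both strands, were in none of the 13 windows and in 0.119%, 2.61%, 3.98% and 1.79% of all promoters. A match is a description of the letters, not a measured binding site.

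The 250 bases before the start are printed 5′ to 3′ on the strand of the gene, with the matched letters in capitals. The Per3 window is chr4:151044666-151044915 (minus strand), which lies in an intron of Camta1 and touches no annotated exon, and its matches are at 205 to 198 and 158 to 151 bases before the start. The Per1 window is chr11:69098699-69098948 (plus strand), inside the span of Per1 with 1 exonic base, and its E-box is at 166 to 161 bases before the start. The Cry1 window is chr10:85185055-85185304 (minus strand), of which 10 bases are annotated as exon of Cry1, and its E-box is at 60 to 55 bases before the start. The Tef window is chr15:81811164-81811413 (plus strand), in an intron of Tef, and its E-box is at 138 to 133 bases before the start.
Per3: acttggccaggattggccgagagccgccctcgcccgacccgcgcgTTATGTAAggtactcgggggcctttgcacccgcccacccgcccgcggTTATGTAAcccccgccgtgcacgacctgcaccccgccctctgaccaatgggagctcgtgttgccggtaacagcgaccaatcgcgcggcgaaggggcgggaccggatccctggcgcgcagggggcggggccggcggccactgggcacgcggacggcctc
Per1: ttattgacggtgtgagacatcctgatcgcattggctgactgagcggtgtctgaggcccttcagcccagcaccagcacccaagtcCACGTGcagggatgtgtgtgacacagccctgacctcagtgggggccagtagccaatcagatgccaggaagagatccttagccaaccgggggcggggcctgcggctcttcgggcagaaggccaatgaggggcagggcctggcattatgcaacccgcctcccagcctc
Cry1: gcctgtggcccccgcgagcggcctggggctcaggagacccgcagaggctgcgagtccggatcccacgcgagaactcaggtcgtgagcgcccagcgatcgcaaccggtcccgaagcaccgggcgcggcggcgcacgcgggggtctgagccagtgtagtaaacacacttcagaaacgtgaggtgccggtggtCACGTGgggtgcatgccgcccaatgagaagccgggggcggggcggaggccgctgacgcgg
Tef: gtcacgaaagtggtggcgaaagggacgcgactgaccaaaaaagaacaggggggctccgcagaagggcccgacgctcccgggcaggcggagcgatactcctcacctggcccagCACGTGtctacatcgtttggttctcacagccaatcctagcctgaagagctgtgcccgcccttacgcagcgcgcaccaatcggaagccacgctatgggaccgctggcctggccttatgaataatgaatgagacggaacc
The other window of Tef, which is exonic, also held an E-box, at 127 to 122 bases before its start.

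Library totals ran from 13759108 to 20830349 counts and were larger in each control library than in each D-gal library, with TMM scaling factors between 0.986 and 1.015. Within the control group, replicate 3 stood apart from the other two libraries, low for Clock and Tef and high for Cry1 and Nr1d2. Fibroblast markers were present, with 8 of 8 having a count, and their summed level was 6954 to 7110 CPM (counts relative to the library total) in control and 4697 to 4818 in D-gal libraries. Lum was near 0, at up to 0.048 CPM. Pax7, Myod1 and Myf5, which define myogenic cells, were at 0 in all libraries, as were the adipocyte genes Adipoq and Cidec. The summed myogenic list (3 of 6 with a count) was 2.98 to 3.22 CPM in control and 1.89 to 2.05 in D-gal libraries, the endothelial list (4 of 4) 4.46 to 5.34 and 3.13 to 3.43, the immune list (4 of 4) 3.08 to 9.86 and 3.57 to 4.14, the adipocyte list (1 of 3) up to 0.048 and 0, and the smooth muscle list (4 of 4) 34.7 to 36.1 and 44.9 to 49.3. The mitochondrial share of counts was 4.26 to 4.44% in control and 4.87 to 4.98% in D-gal libraries. The part of these differences in the results on the clock genes was not tested.

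Comparing D-gal with control cells, the Period genes, Dbp and Tef were lower and the other clock genes of the list did not pass the test. Per2 fell the most, by 31.9%, followed by Dbp (24.0%), Per3 (23.6%), Tef (21.2%) and Per1 (11.5%). Clock, Cry1, Nr1d1 and Nr1d2 had overlapping groups, and Cry2 was lower in all 3 D-gal libraries without passing the test. All 10 genes passed the filter on low counts, with 132 (Per3 in D-gal replicate 1 and Cry2 in D-gal replicate 3) to 2238 (Clock in control replicate 2) counts per library.

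At an adjusted p under 0.05 (edgeR quasi-likelihood test, adjusted over the 13407 genes tested), 5 of the 10 clock genes were called, against 34.8% of all genes tested. All 5 were lower and 0 were higher, against 17.8% of all genes called lower and 16.9% called higher. The study's own thresholds also ask for a change of 1 or more on the log2 scale. By these thresholds, 0 of the 10 were called by edgeR or DESeq2, against 4.21% of all genes (edgeR). An unadjusted p under 0.05 (edgeR) was found for 6 of the 10. The last of these 6 by p, Cry2, had rank 5940 among all 13407 genes tested. Passing this mark was therefore common among all genes. The groups did not overlap in 6 of the 10 clock genes, against 49.1% of all genes tested, a share of the 10 that is near this background. The median log2 fold change was -0.21 for the clock genes (range -0.55 to 0.04) and 0.0036 for all genes tested, of which the middle part, between the quartiles, lay between -0.18 and 0.20. In bulk RNA, fewer cells that express a gene and less RNA of it per cell cannot be told apart. With 3 libraries against 3, the smallest p of the two-sided exact permutation test is 0.1.

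**Figure D1:**
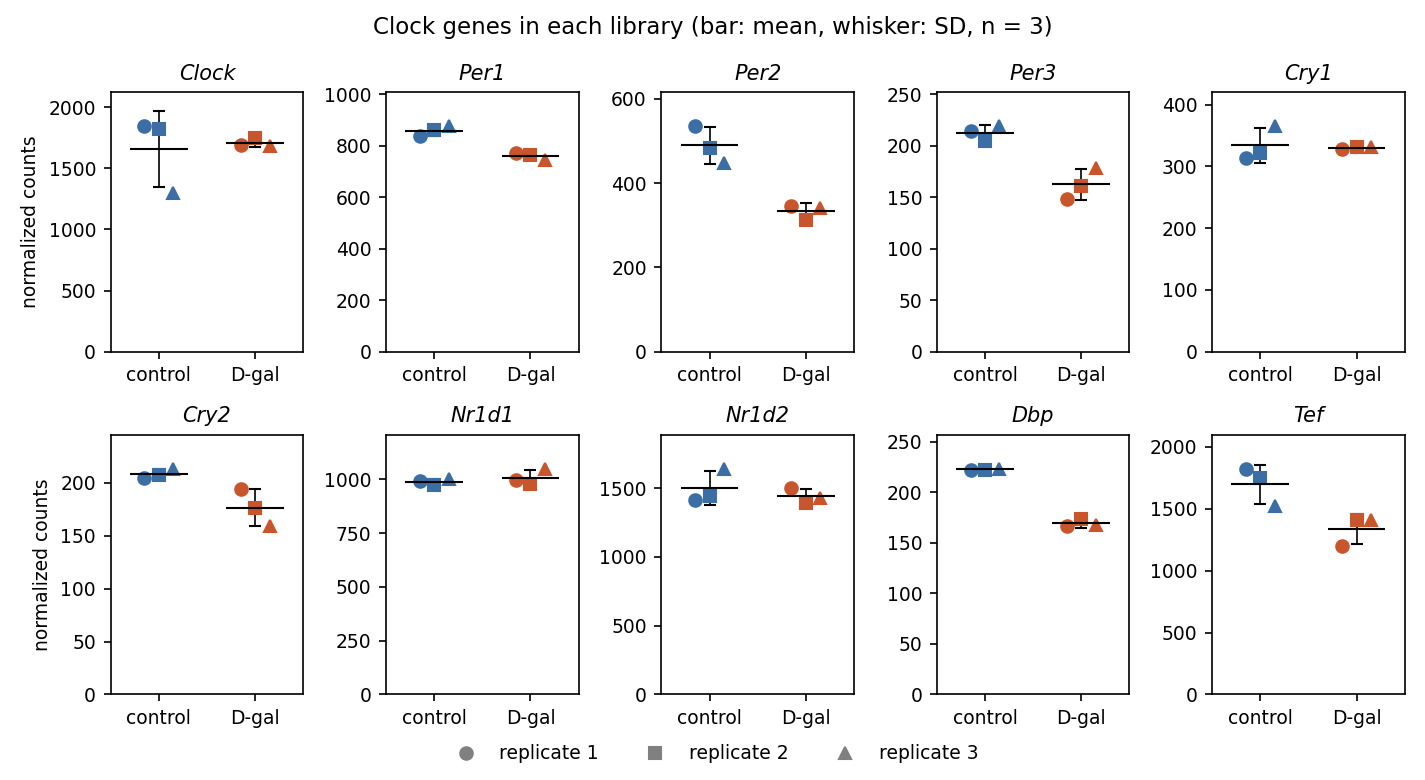
Normalized counts of the 10 clock genes (vertical axis, from 0) in the 3 control and 3 D-gal libraries. Points are libraries, bars are means and whiskers are SD (n = 3). The D-gal libraries lie below all control libraries for Per1, Per2, Per3, Cry2, Dbp and Tef.

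Among the repressors of the loop, Per2 (chr1:91415982-91459324, minus strand, in GRCm38 like the other loci), which encodes a core PERIOD protein, changed the most. Normalized counts, which are counts scaled to a common library size, were 536, 484 and 448 in control and 347, 312 and 341 in D-gal libraries. Each D-gal library was below the lowest control library. The mean was 489 ± 44.0 (SD, n = 3) in control and 333 ± 18.5 (SD, n = 3) in D-gal cells, a log2 fold change of -0.55 (SE 0.09, 95% confidence interval -0.76 to -0.35, adjusted p = 0.00194, edgeR). The exact permutation test gave p = 0.1, and the edgeR call held in 13 of 13 alternatives.

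Per3 (chr4:151003652-151044665, minus strand), the PERIOD gene whose loss is known to disturb the rhythm least, is the least abundant of the 10 per length. It had 214, 204 and 219 normalized counts in control and 148, 161 and 178 in D-gal libraries, which did not overlap. The log2 fold change was -0.39 (SE 0.10, 95% confidence interval -0.62 to -0.15, adjusted p = 0.0206, edgeR). Raw counts of Per3 were 132 to 250 per library. The call was lost without control replicate 1 (adjusted p = 0.0554), control replicate 3 (0.0597), D-gal replicate 1 (0.0605) or D-gal replicate 2 (0.0560), and with DESeq2 (0.0618) and with limma on the FPKM values (0.0509).

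Per1 (chr11:69095217-69109960, plus strand), an early target of glucocorticoids and cAMP, had 838, 859 and 877 normalized counts in control and 771, 764 and 743 in D-gal libraries. The groups were close to each other and did not overlap, with SDs of 19.1 and 14.4 (n = 3 each). The log2 fold change was -0.18 (SE 0.05, 95% confidence interval -0.29 to -0.06, adjusted p = 0.0255, edgeR). The call was lost without control replicate 2 (adjusted p = 0.0658), control replicate 3 (0.0753), D-gal replicate 2 (0.0629) or D-gal replicate 3 (0.0727), and with DESeq2 (0.0937), limma (0.0815) and the replicate number as a block (0.0616).

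The cryptochromes, the most direct repressors of CLOCK and BMAL1, did not pass the test. Cry1 (chr10:85131702-85185054, minus strand) had 314, 322 and 366 normalized counts in control and 328, 332 and 331 in D-gal libraries, so that the D-gal libraries lay inside the range of the control libraries. The log2 fold change of Cry1 was -0.01, with a 95% confidence interval of -0.20 to 0.18 (adjusted p = 0.917, edgeR). Cry2 (chr2:92403646-92434043, minus strand) had 204, 207 and 213 normalized counts in control and 194, 176 and 159 in D-gal libraries. These did not overlap, and each D-gal library was lower than each control library. The log2 fold change of Cry2 was -0.24 (SE 0.10, 95% confidence interval -0.47 to -0.0018), with an adjusted p of 0.11 (edgeR) that passed the threshold in 0 of 13 alternatives.

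Clock (chr5:76209868-76304792, minus strand), the positive arm of the loop and a histone acetyltransferase by its known activity, had 1848, 1826 and 1299.7 normalized counts in control and 1691, 1747 and 1683 in D-gal libraries. Control replicate 3 was the lowest of the 6, and the other two control libraries were the highest. The log2 fold change was 0.04 (SE 0.12, 95% confidence interval -0.24 to 0.32, adjusted p = 0.826, edgeR), and it was -0.11 (adjusted p = 0.104) without control replicate 3. The range of Clock over the control libraries was 0.51 on the log2 scale, and 84.7% of the genes tested had a smaller one.

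Control replicate 3 also stood apart from the other two control libraries for other clock genes. Relative to the mean of the control group on the log2 scale, it was at -0.33 for Clock and -0.15 for Tef, and at 0.13 for Cry1 and 0.13 for Nr1d2. For Nr1d1 and Dbp it was within 0.02 and 0.0047 of that mean. Without control replicate 3, 3 of the 10 clock genes were called at an adjusted p under 0.05, Per2, Dbp and Tef. In that fit 3734 of all 13616 genes tested were called, so the share of the 10 was near this background.

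The receptors of the second loop did not pass the test. Nr1d1 (chr11:98767932-98775333, minus strand) had 993, 973 and 999.8 normalized counts in control and 997, 977 and 1049.5 in D-gal libraries. The groups overlapped, and the 95% confidence interval of the log2 fold change (0.03, adjusted p = 0.698, edgeR) ran from -0.08 to 0.14. Nr1d2 (chr14:18204054-18239127, minus strand) had 1415, 1442 and 1641 normalized counts in control and 1500.4, 1394 and 1427 in D-gal libraries. These groups overlapped too, with a log2 fold change of -0.06 (95% confidence interval -0.20 to 0.09, adjusted p = 0.531, edgeR). Of the exonic bases of Nr1d1, 8.55% overlap Thra, a thyroid hormone receptor gene, on the other strand. Of the 31-base words of Nr1d2 transcripts, 9.51% also occur in other genes, so that part of these counts is uncertain.

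Both D-box factors of the list were lower in D-gal cells. Dbp (chr7:45705088-45710155, plus strand), a direct output of CLOCK and BMAL1 with a large rhythm in most tissues, had 222, 222 and 223 normalized counts in control and 166, 174 and 167 in D-gal libraries. The groups did not overlap, and the log2 fold change was -0.40 (SE 0.08, 95% confidence interval -0.59 to -0.20, adjusted p = 0.00827, edgeR), a call held in 13 of 13 alternatives. The control libraries agreed more closely (coefficient of variation 0.292%) than counting error alone gives (6.33%), so their SD understates the error. Control libraries were also closer than counting error for Per1 (2.23% against 3.23%), Per3 (3.64% against 6.49%), Cry2 (2.23% against 6.55%) and Nr1d1 (1.44% against 3.01%). Of the exonic bases of Dbp, 18.0% overlap Sphk2 on the other strand, and the strand setting of the counting is not given in the sources used here. Of the 31-base words of Dbp transcripts, 16.9% also occur in other annotated genes. Words on either strand count, so the overlap with Sphk2 is included in this share. Sphk2, a sphingosine kinase, had a log2 fold change of 0.26 (adjusted p = 0.0232, edgeR), opposite in direction to Dbp.

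Tef (chr15:81802421-81826861, plus strand), a PAR bZIP factor related to Dbp, had 1823, 1749 and 1522 normalized counts in control and 1199, 1413 and 1406 in D-gal libraries. All D-gal libraries were below all control libraries, with D-gal replicate 1 and control replicate 3 the lowest of their groups. The log2 fold change was -0.34 (SE 0.09, 95% confidence interval -0.54 to -0.15, adjusted p = 0.0161, edgeR). The call was lost without control replicate 1 (adjusted p = 0.0571) or control replicate 2 (0.0557). By role, 3 of 5 repressors and 2 of 2 D-box factors of the list were called lower, and 0 of 2 second-loop receptors and 0 of 1 positive-arm genes were called, against 17.8% of all genes called lower, in groups too small to set the roles apart.

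**Figure D2:**
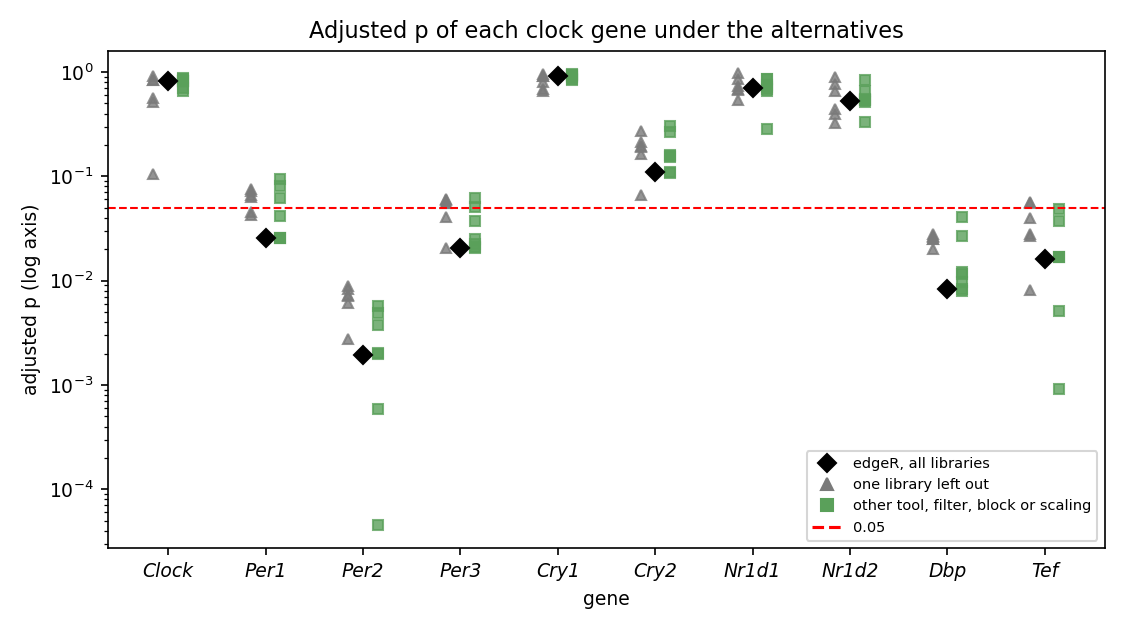
Adjusted p of each clock gene (log axis) with edgeR on all libraries (diamonds), with 1 library left out (triangles) and with another tool, filter, block or scaling (squares). Per2 and Dbp lie below the dashed line at 0.05 in all 13 alternatives, while Per1, Per3 and Tef cross it in some.

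Levels between genes were compared per length, as CPM per kilobase of merged annotated exons. In control cells the order was Nr1d1 (18.9 ± 0.262, SD, n = 3), Nr1d2 (16.3 ± 1.30), Tef (12.7 ± 1.20), Per1 (8.96 ± 0.179), Clock (7.11 ± 1.34), Cry1 (5.88 ± 0.475), Per2 (4.92 ± 0.454), Dbp (4.37 ± 0.00794), Cry2 (1.94 ± 0.0385) and Per3 (1.30 ± 0.0463). Of these neighbours, Clock and Cry1 had overlapping control ranges, and no others did. The order by mean level was the same in D-gal cells. The level of Per2 was 3.43 ± 0.181 in D-gal cells, beside 3.40 ± 0.0907 for Dbp. By the deposited FPKM values, which use another gene length, Cry1 was the fourth, Per1 the fifth, Per2 the sixth and Clock the seventh, and the other genes kept their places.

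**Figure D3:**
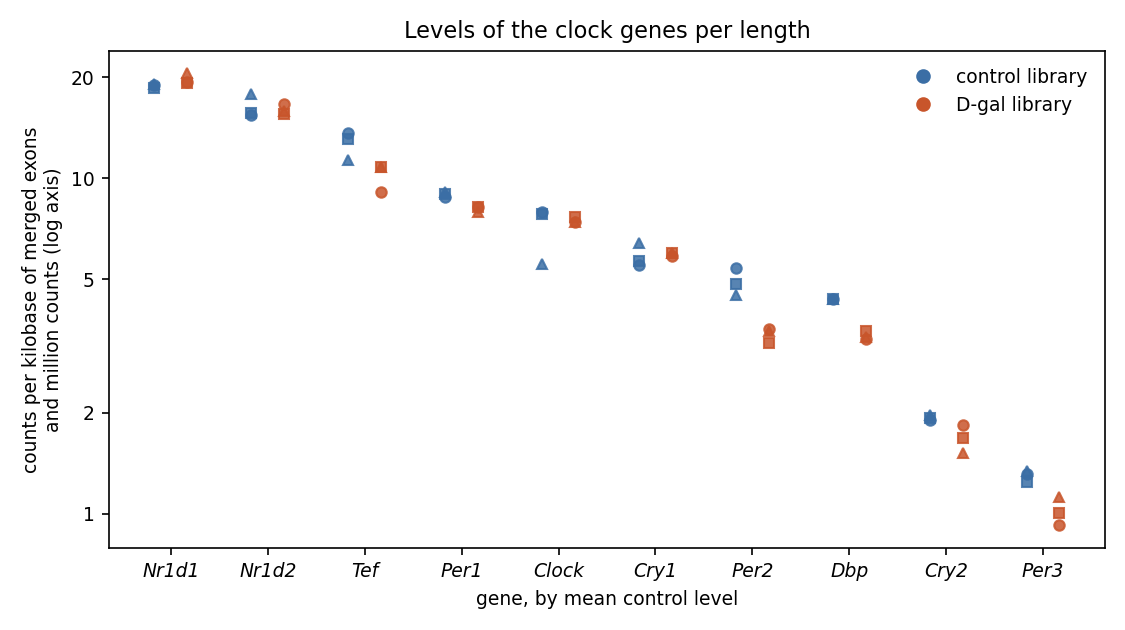
Levels of the 10 clock genes in CPM per kilobase of merged exons (log axis), ordered by mean control level. Points are the 3 control and 3 D-gal libraries. The 2 REV-ERB genes are at the top and Cry2 and Per3 at the bottom in both groups.

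The other circadian genes that passed the filter on low counts were 26, and these included larger changes than any of the 10 clock genes, in both directions. At an adjusted p under 0.05 (edgeR), 5 were higher, 9 were lower and 12 were not called, against 16.9% of all genes tested called higher and 17.8% called lower. By the thresholds of the study, 2 were called, both lower, against 4.21% of all genes. The groups did not overlap in 20 of the 26 (49.1% of all genes tested), and the median of their log2 fold changes was -0.11.

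In the positive arm, Npas2, a paralog of Clock that can take its place, rose from a low level. Npas2 had 27.0, 35.9 and 37.4 normalized counts in control and 61.7, 53.5 and 75.9 in D-gal libraries, a log2 fold change of 0.93 (SE 0.21, adjusted p = 0.0110, edgeR). Arntl, which encodes BMAL1, had 298, 303 and 307 normalized counts in control and 316, 347 and 354 in D-gal libraries. Its groups did not overlap, and its log2 fold change of 0.17 did not pass the test (SE 0.08, adjusted p = 0.132, edgeR), though it did in 1 of 13 alternatives, limma on the FPKM values (adjusted p = 0.0477). Arntl2, the paralog of Arntl, was lower (log2 fold change -0.42, adjusted p = 0.0147, edgeR), a call lost without control replicate 2 (0.0526), D-gal replicate 2 (0.0506) or D-gal replicate 3 (0.0503).

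Bhlhe40 and Bhlhe41 encode DEC1 and DEC2, repressors that compete for the E-box, and both were lower. Bhlhe40 had 464, 479 and 436 normalized counts in control and 215, 159 and 179.5 in D-gal libraries, the largest fall among all circadian genes tested here (log2 fold change -1.31, SE 0.11, adjusted p = 1.06e-04, edgeR). Bhlhe41 had a log2 fold change of -0.73 (SE 0.12, adjusted p = 0.00294, edgeR). On the other strand, 19.0% of its exonic bases overlap Gm43909, a gene not listed by that name in the deposited table. Cipc, whose protein binds CLOCK and inhibits it, had a log2 fold change of 0.35 (adjusted p = 0.0166, edgeR), a call lost without control replicate 1 (0.0587), control replicate 3 (0.0531) or D-gal replicate 2 (0.0519).

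Rora, a receptor that activates Arntl at the element REV-ERB proteins repress, rose by 0.44 on the log2 scale (SE 0.07, adjusted p = 0.00167, edgeR). Hlf, the third PAR bZIP factor beside Dbp and Tef, moved opposite to them. Hlf had 254, 309 and 176 normalized counts in control and 432, 473 and 434 in D-gal libraries, a log2 fold change of 0.85 (SE 0.18, 95% confidence interval 0.44 to 1.26, adjusted p = 0.00738, edgeR). Control replicate 3 was the lowest, and without it the log2 fold change of Hlf was 0.66.

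The 4 genes of PER-associated proteins were called lower, against 17.8% of all genes tested, although 2 of these calls were lost in some alternatives. Timeless and Tipin, which also act at replication forks, had log2 fold changes of -0.20 (adjusted p = 0.0364, edgeR) and -0.27 (adjusted p = 0.0114), and the RNA-binding proteins Nono and Sfpq had -0.11 (adjusted p = 0.0164) and -0.18 (adjusted p = 0.00145). The call of Timeless held in 5 of 13 alternatives, and it was lost without any single library but D-gal replicate 2 (adjusted p from 0.0761 to 0.101). That of Nono was lost without control replicate 1 (0.0505) or D-gal replicate 3 (0.0545), and with limma on the FPKM values (0.0638). Of the 31-base words of Nono transcripts, 22.0% occur in other genes. Of the 8 kinases, ubiquitin ligases and the deubiquitinase tested, only Csnk1e, a kinase of PER proteins, was called (log2 fold change 0.14, adjusted p = 0.0451, edgeR). It was higher, as were 16.9% of all genes tested. The call of Csnk1e held in 5 of 13 alternatives. It was lost without any single library but D-gal replicate 2 (adjusted p from 0.0642 to 0.123). With all libraries kept, it was lost with DESeq2 (0.115), no filter (0.0888) and the replicate block (0.0707). Of the 3 outputs, Klf10, a Krüppel-like factor (log2 fold change -1.09, adjusted p = 1.4e-04, edgeR), and Wee1, the mitotic kinase (-0.38, adjusted p = 0.00524), fell, and Noct was not called, against 17.8% of all genes called lower.

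**Figure D4:**
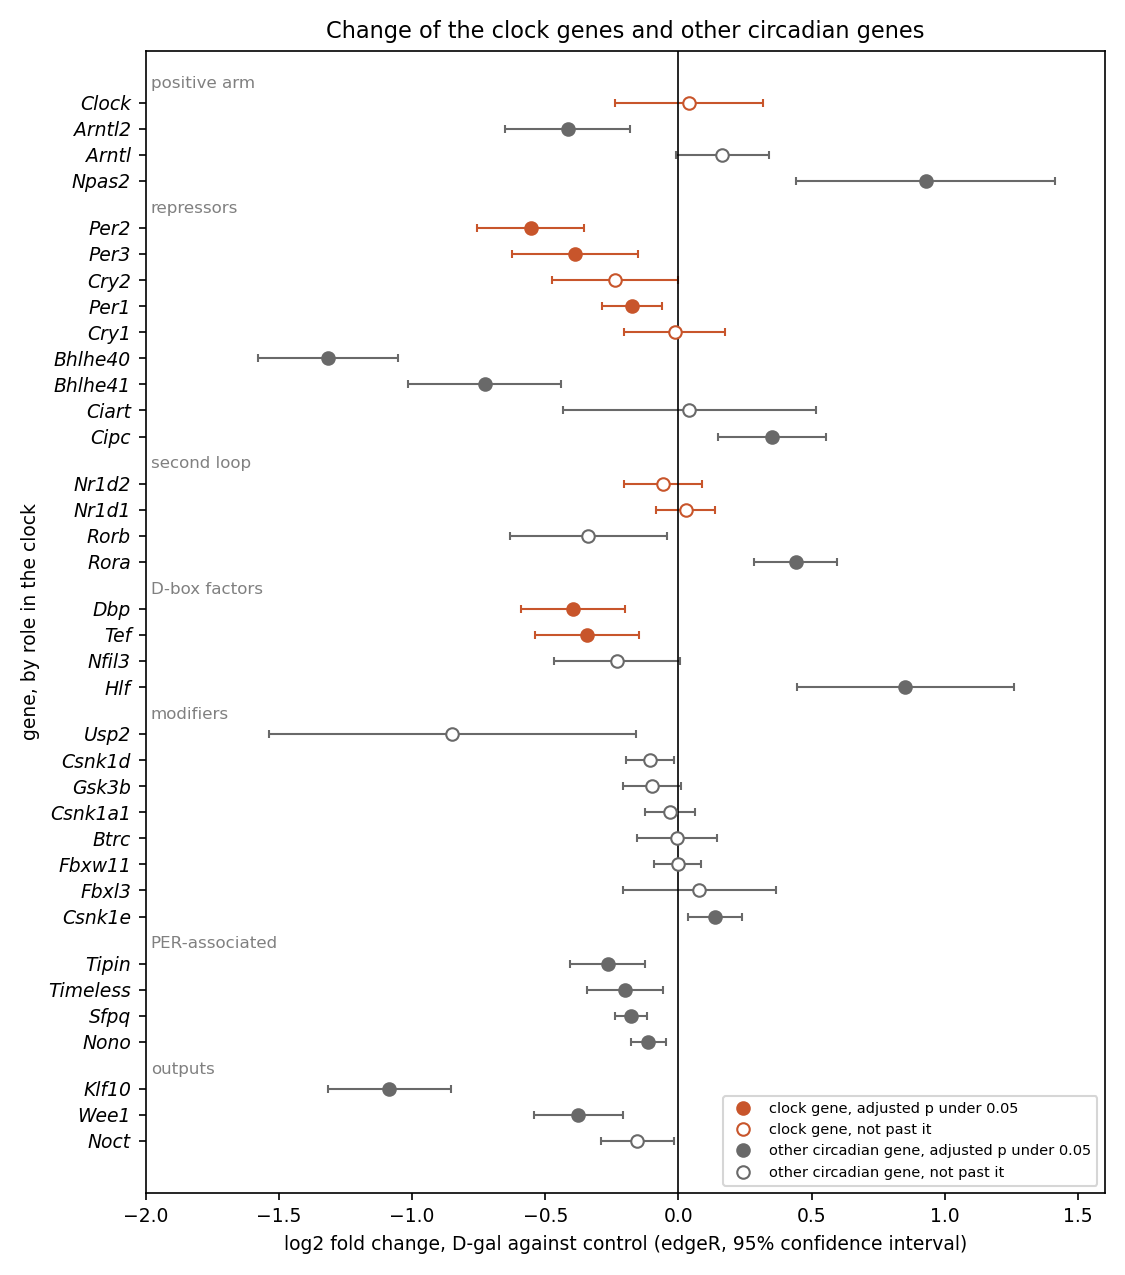
Log2 fold change, D-gal against control (edgeR, horizontal axis, with 95% confidence interval), of the 10 clock genes (orange) and the 26 other circadian genes tested (grey), by role. Filled points have an adjusted p under 0.05. Per1, Per2, Per3, Dbp and Tef are filled on the left, and Npas2, Hlf and Rora on the right.

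Glucocorticoids are a known input to fibroblast clocks through Per1, so glucocorticoid-inducible genes were read beside it. Of 10 such genes, Per1 included, 9 passed the filter (Zbtb16 did not). At an adjusted p under 0.05, 6 were lower, 1 was higher and 2 were not called, against 17.8% of all genes tested called lower and 16.9% called higher. By the thresholds of the study 0 were called (edgeR or DESeq2), against 4.21% of all genes (edgeR). An unadjusted p under 0.05 (edgeR) was found for 7, a mark that Cry2, ranked 5940 by p among all 13407 genes, also passed. Klf9, a Krüppel-like factor, had the largest fall, from 706 ± 27.6 to 409 ± 47.8 normalized counts (log2 fold change -0.79, adjusted p = 4.01e-04, edgeR). Pik3r1 (log2 fold change -0.48, adjusted p = 5.3e-05), Fkbp5 (-0.40, adjusted p = 0.00418) and Errfi1 (-0.24, adjusted p = 0.00817) were lower as well, as was Sgk1 (-0.12, adjusted p = 0.0224). The call of Sgk1 held in 8 of 13 alternatives. Its losses included those without control replicate 2 (0.0581), control replicate 3 (0.0569), D-gal replicate 2 (0.0523) or D-gal replicate 3 (0.0706). Dusp1, a phosphatase of MAP kinases that many stresses also induce, rose from 1277 ± 71.8 to 2446 ± 24.6 normalized counts (log2 fold change 0.94, adjusted p = 9.03e-06, edgeR). Over these 9 genes the median of the log2 fold changes was -0.18, and genes were called in both directions.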

How the data were processed

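Libraries from 6 samples of NOR-10 cells, 3 control and 3 D-gal, were grouped by their titles. The labels name a standard RNA-seq kit, and the methods of the study name a small RNA kit. The deposited table holds counts of reads per gene, which the authors gave without normalization, after quality control, trimming and, per the labels, alignment with HISAT2 (version 2.0.4). The counting tool, its strand setting and the annotation are not given in the sources used here. FPKM values stand beside them, computed by the authors with a gene length of their own. Loci are as deposited, and exons were read from GENCODE release M21 (GRCm38), where 7 of the 10 clock genes have the same start and end.

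Counts were filtered with filterByExpr, scaled by TMM and tested in edgeR (version 4.0.16, R 4.3.3) with its quasi-likelihood test, and p-values were adjusted by Benjamini-Hochberg over 13407 genes. Standard errors come from the F statistic. Exact permutation tests over libraries were added for single genes. The members and the gene lists were chosen with earlier results of these data known. The genes named are the 10 clock genes, the listed genes with an adjusted p under 0.05, Arntl and Npas2, and genes at 0, not tested or overlapping a clock gene. One listed gene is not reported here. Alternatives were DESeq2 (version 1.42.0), RLE size factors, no filter, a minimum of 10 counts per library, the replicate block, each replicate left out, limma (version 3.58.1) on log2(FPKM + 1), thinned counts, glmTreat and other thresholds. On simulated counts with 200 changed genes among 13407, edgeR recovered 100 of 100 at a log2 change of 1 and 100 of 100 at 2, with 13 false calls among 213. Changes as small as those of the clock genes were not simulated. Replicates differed by more than counting noise (chi-square per degree of freedom 6.00 to 9.42), and none was counted as a duplicate.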

Additional observations from a re-analysis of the deposited data

How the results depend on the processing

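At an adjusted p under 0.05 alone, 5 clock genes were called, 3 with DESeq2, 3 with limma on log2(FPKM + 1), 2 under 0.01 and 3 to 4 with 1 library left out (3 without control replicate 1, 2 or 3 or D-gal replicate 2). Of all genes, the same rule called 4661 in the main fit, 3868 with DESeq2 and 4547 with limma. With 1 library left out it called 3651 to 4009 of all genes. The calls of Per2 and Dbp held in all 13 alternatives, Tef in 11, Per3 in 7 and Per1 in 6, and the median log2 fold change of the 10 lay between -0.23 and -0.12. With the added threshold on the fold change, the counts were 0 clock genes (5 at the adjusted p alone), 2 other circadian genes (14 at the adjusted p alone, 7 under 0.01, 0 with limma, 0 with glmTreat, 1 to 3 with 1 library left out, the lowest without D-gal replicate 3), 0 glucocorticoid-inducible genes (7 at the adjusted p alone) and 564 of all genes (4661 at the adjusted p alone, 2729 under 0.01, 120 with limma, 95 with glmTreat). The log2(FPKM + 1) scale understates the change of low genes, and the cause of the other differences was not tested. Counting error is larger for Cry2 (132 to 254 counts per library) than for Clock (1287 to 2238).

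The replicate numbers share a number and no stated culture: deviations of same-numbered libraries from their group means correlated at -0.011, -0.0027 and 0.028. With the replicate number as a block, 4 clock genes (Per1 was lost, adjusted p = 0.0616), 13 other circadian, 6 glucocorticoid-inducible and 3982 of all genes had an adjusted p under 0.05, and 530 of all genes passed both thresholds.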

Other observations

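Ratios between clock genes of the same library do not depend on the scaling between libraries. For 6 ratios, chosen after the values of the genes were seen, the two-sided exact permutation test over 3 libraries against 3 cannot go below p = 0.1. The log2 ratio of Per2 to Cry1 counts was 0.55 ± 0.24 (SD, n = 3) in control and 0.01 ± 0.09 in D-gal libraries, and that of Per2 to Per1 was -0.81 ± 0.16 and -1.19 ± 0.09. Dbp to Nr1d1, an output and a receptor that CLOCK and BMAL1 are both known to drive, was -2.15 ± 0.02 in control and -2.58 ± 0.08 in D-gal libraries. The largest difference among the 6 was in Hlf, which rose, to Dbp, which fell, at 0.11 ± 0.42 and 1.40 ± 0.04. Npas2 to Clock was -5.63 ± 0.49 and -4.76 ± 0.28. For these 5 ratios the groups did not overlap (exact permutation p = 0.1, adjusted 0.12 over the 6). Because the pairs were picked with the values known, this describes the chosen genes and is not a test. For Cry2 to Cry1 they overlapped, with a difference of -0.23 (exact permutation p = 0.2).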
